A study of Mus musculus with 10 samples.

Results

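The 8 genes described here are inflammatory ligands and NF-kB inhibitor genes: the chemokines Cxcl2, Ccl3 and Ccl4, the cytokines Tnf and Il1b, and the inhibitors Nfkbia, Nfkbiz and Tnfaip3. They were taken by name from a raw count table of 52636 genes. All 8 passed a low-count filter that left 15916 genes for testing. They were followed across 10 RNA libraries of mouse leukaemic progenitors in which the DNA methyltransferase mutant DNMT3A R882H was on or off. After 14 days, Cxcl2, Ccl3, Ccl4 and Tnfaip3 were lower with the mutant off, by 2.68 to 3.97 times, and Il1b was higher by 3.35 times. After 5 days, none of the 8 passed the test.

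NF-kB is a family of dimeric transcription factors that inhibitor proteins of the IkB family hold in the cytoplasm. Signals from receptors for TNF, interleukin 1 and bacterial products activate the IkB kinase complex, which marks IkB proteins for degradation and lets the dimers enter the nucleus. The dimers then switch on genes for chemokines and cytokines and also genes for their own inhibitors, so that many NF-kB responses are short pulses. In myeloid cells these ligands recruit neutrophils and monocytes, and myeloid leukaemias often carry NF-kB activity.

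The model, named DIN, was made from mouse fetal liver cells that received 3 MSCV retroviral vectors. One carried DNMT3A R882H with dsRed behind a doxycycline-regulated element, one IDH2 R140Q with GFP, and one NRAS G12D with the TTA transactivator. The first recipients were sub-lethally irradiated female Ptprca mice, and frozen cells from moribund mice were then transplanted into further Ptprca hosts. All groups therefore share the IDH2 and NRAS mutants, and host blood cells may remain in these mice. Doxycycline in chow and water turned DNMT3A R882H off (the off groups), and mice on normal chow and water kept it on (the on groups). The groups are day 14 off (4 libraries), day 14 on (2), day 5 off (2) and day 5 on (2), each of cKit+/Cd11b- cells sorted from bone marrow and spleen. The labels do not say which organ or which mouse a library came from, nor how many primary leukaemias were used. The p-values below therefore measure the spread between these libraries, which may be technical. Doxycycline and loss of the mutant came together in every off library, so their effects cannot be told apart.

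Total counts ran from 9292644 to 14340624 per library, and levels are given as CPM, which are counts scaled to library size, after TMM scaling. For a gene with no read, 3 reads set the limit, which was 0.209 CPM for the largest library and 0.323 CPM for the smallest and covers counting error only. Reads came from the 3′ ends of transcripts. Dnmt3a read 31.9 to 39.3 CPM in day 14 off, 55.9 to 73.6 in day 14 on, 50.2 to 65.6 in day 5 off and 51.2 to 52.8 in day 5 on. Whether the vector transcript is counted there is not given in the sources used here, so this is no check of the labels. Kit, the sorted receptor, was found in every library at 30.9 to 98.1 CPM, while Itgam, which encodes the sorted-out Cd11b, was also found. Itgam read 2.07 to 3.73 CPM in day 14 off and 8.76 to 21.9 CPM in day 14 on, and was lower in the off libraries by a log2 change of -2.28 ± 0.56 (edgeR adjusted p = 0.0121), as were 4 of the 8 genes. Its part in their changes was not tested. Kit was lower in day 14 off than in day 14 on by a log2 change of -1.44 ± 0.12 (standard error; edgeR adjusted p = 4.8e-05). The stem and progenitor marker Cd34 differed by -4.78 ± 0.60 (edgeR adjusted p = 4.01e-04), so the cells of the day 14 groups differed in more than the 8 genes.

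The promoters of 3 of these genes hold a match to the NF-kB binding consensus, and they are shown because 2 of these 3 genes were lower at day 14 and all 3 encode a ligand or inhibitor that NF-kB is known to switch on. Promoter windows from RefSeq (build GRCm38.p6), of 250 bases before to 50 bases from the start of the gene, were at hand for 6 of the 8 genes (Cxcl2, Ccl3, Tnf, Il1b, Nfkbia and Tnfaip3). The capitals mark each match to the 10-base consensus, searched on both strands, and bases are given 5′ to 3′ on the strand of the gene.
Cxcl2, chr5:90903649-90903948, plus strand: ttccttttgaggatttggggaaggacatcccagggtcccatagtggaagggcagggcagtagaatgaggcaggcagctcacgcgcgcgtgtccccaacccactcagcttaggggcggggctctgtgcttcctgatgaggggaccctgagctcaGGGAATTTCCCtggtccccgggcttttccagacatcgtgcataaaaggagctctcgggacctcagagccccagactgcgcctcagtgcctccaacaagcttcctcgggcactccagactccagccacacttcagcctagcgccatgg
Nfkbia, chr12:55492598-55492897, minus strand: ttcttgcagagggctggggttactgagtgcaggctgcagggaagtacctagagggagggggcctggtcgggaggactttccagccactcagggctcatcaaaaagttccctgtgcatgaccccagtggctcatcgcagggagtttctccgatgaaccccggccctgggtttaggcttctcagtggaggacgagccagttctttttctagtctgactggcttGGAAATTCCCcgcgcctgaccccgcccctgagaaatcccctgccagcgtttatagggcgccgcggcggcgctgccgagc
Tnfaip3, chr10:19015361-19015660, minus strand: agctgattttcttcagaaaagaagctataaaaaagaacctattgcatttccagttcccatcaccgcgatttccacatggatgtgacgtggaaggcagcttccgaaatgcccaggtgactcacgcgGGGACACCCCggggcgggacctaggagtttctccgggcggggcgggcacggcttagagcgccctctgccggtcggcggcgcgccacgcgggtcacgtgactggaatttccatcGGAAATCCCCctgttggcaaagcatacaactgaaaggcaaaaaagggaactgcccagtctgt
Il1b, chr2:129371090-129371389, minus strand: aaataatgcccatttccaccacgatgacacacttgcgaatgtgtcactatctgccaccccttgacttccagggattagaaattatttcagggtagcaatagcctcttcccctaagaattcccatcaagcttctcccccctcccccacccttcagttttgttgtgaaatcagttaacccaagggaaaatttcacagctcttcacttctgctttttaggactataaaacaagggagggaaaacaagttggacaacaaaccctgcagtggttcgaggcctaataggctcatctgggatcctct
The Il1b window is shown beside them as one without a match. The windows of Ccl3, which was lower at day 14, and of Tnf held no match to the consensus or to the shorter pattern given below either, nor did a second Tnfaip3 window, and no direction is read from a match. In the Cxcl2 window, matches on both strands overlap at window positions 154 to 164, counted from 1 at the 5′ end. The Nfkbia match lay on the opposite strand at positions 222 to 231, and Tnfaip3 had one on the same strand at 126 to 135 and one on the opposite strand at 239 to 248. Of all 32851 RefSeq promoter windows of this length, 4.51% held at least 1 match. A shorter pattern, GGGNNTTTC on either strand, which overlaps the consensus, was also found in Cxcl2, Nfkbia and Tnfaip3, and in 4.36% of all windows. A match describes the letters in these windows and is not evidence of binding.

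Of the 8 genes, 4 were called lower and 1 higher in day 14 off than in day 14 on, at an edgeR adjusted p under 0.05. Among all genes tested in that comparison, 31.8% were called, 16.9% higher and 14.9% lower. The CPM values of the day 14 groups did not overlap for 6 of the 8 genes, against 52.5% of all tested genes, so separation of the groups by itself was common. This share was counted for this comparison only, and separation in the other comparisons is given as a description. The median log2 change was -1.07 over the 8 genes and 0.01 over all tested genes.

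Cxcl2, on chromosome 5 (mm10, 90903871 to 90905938, plus strand, ENSMUSG00000058427), encodes a chemokine that draws neutrophils through the receptor Cxcr2. Its level was 4.23, 2.78, 3.30 and 2.73 CPM in the 4 day 14 off libraries and 14.1 and 10.3 CPM in the day 14 on libraries. All 4 off libraries lay below both on libraries. The log2 change was -1.90 ± 0.27, a level 3.73 times lower with DNMT3A R882H off (edgeR adjusted p = 5.37e-04). These values rest on 29 to 50 reads in each off library and 114 to 136 in each on library.

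Ccl3 and Ccl4 (MIP-1α and MIP-1β) encode chemokines that attract monocytes and other leukocytes. They are neighbours on chromosome 11, Ccl3 at 83647844 to 83649355 on the minus strand (ENSMUSG00000000982) and Ccl4 at 83662584 to 83664683 on the plus strand (ENSMUSG00000018930), with 13228 bases between them. Ccl4 read 3.30, 4.17, 2.96 and 2.64 CPM in day 14 off and 9.22 and 16.8 CPM in day 14 on. The groups did not overlap, and Ccl4 was 3.97 times lower with the mutant off (log2 change -1.99 ± 0.29, edgeR adjusted p = 6.2e-04). Ccl3 read 1.78, 3.59, 0.895 and 1.13 CPM against 6.22 and 6.50 CPM. Its off libraries varied more among themselves, with replicate 2 the highest, yet all lay below the on libraries. Ccl3 was 3.41 times lower (log2 change -1.77 ± 0.48, edgeR adjusted p = 0.0175). The Ccl3 call was lost in 3 of 18 alternatives, among them when either day 14 on library was left out (edgeR adjusted p = 0.0635 without replicate 1 and 0.0756 without replicate 2, within a range of 6.47e-06 to 0.0756 over 18 alternatives).

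Tnf, on chromosome 17 (35199381 to 35202007, minus strand, ENSMUSG00000024401), encodes the cytokine that is itself a classic activator of NF-kB. It read 2.71, 4.17, 2.41 and 2.92 CPM in day 14 off and 3.11 and 6.95 CPM in day 14 on. The groups overlapped, since off replicate 2 lay above on replicate 1, and the log2 change of -0.73 ± 0.38 did not pass (edgeR adjusted p = 0.175).

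Il1b, on chromosome 2 (129364570 to 129371139, minus strand, ENSMUSG00000027398), encodes the interleukin 1 beta precursor, which caspase 1 cleaves before release. It was the one gene of the 8 that was higher in day 14 off, at 7.54, 4.54, 6.20 and 4.42 CPM, against 1.66 and 1.72 CPM in day 14 on. The groups did not overlap, with 47 to 90 reads per off library and 16 to 19 per on library. The log2 change was 1.74 ± 0.61, and the gene only just passed (edgeR adjusted p = 0.0497). The call was lost in 9 of 18 alternatives, among them leaving out any 1 of the day 14 libraries or of the day 5 off libraries, while the log2 change stayed between 1.56 and 1.82 (adjusted p from 2.21e-04 to 0.187). An annotated antisense gene, Il1bos, overlaps Il1b. Its own counts were 0 to 5 per library. As the strand setting of the counting is not given in the sources used here, reads of the pair cannot be told apart.

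Of the inhibitor genes, Tnfaip3 was called lower at day 14, and Nfkbia and Nfkbiz were not. The log2 change of each was negative, and differences between these genes were not tested. Nfkbia, on chromosome 12 (55489410 to 55492647, minus strand, ENSMUSG00000021025), encodes IkB alpha, which retains NF-kB dimers in the cytoplasm and is resynthesised after activation. It read 297, 234, 501 and 234 CPM in day 14 off and 630 and 382 CPM in day 14 on. Off replicate 3 lay above on replicate 2, so the groups overlapped, and the log2 change of -0.68 ± 0.32 did not pass (edgeR adjusted p = 0.139). Without off replicate 3 the log2 change was -1.0 and passed (edgeR adjusted p = 0.0119, within a range of 3.78e-04 to 0.651 over 18 alternatives). With 1763 to 7279 reads per library, Nfkbia was the deepest-counted of the 8 genes.

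Tnfaip3, on chromosome 10 (19000910 to 19015657, minus strand, ENSMUSG00000019850), encodes A20, a ubiquitin-editing enzyme that shuts off signalling from TNF and Toll-like receptors. It read 6.77, 6.00, 5.85 and 3.58 CPM in day 14 off and 13.4 and 16.5 CPM in day 14 on. The groups were separate, and Tnfaip3 was 2.68 times lower with the mutant off (log2 change -1.42 ± 0.31, edgeR adjusted p = 0.00544). The calls of Cxcl2, Ccl4 and Tnfaip3 at day 14 held in all 18 alternatives.

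Nfkbiz, on chromosome 16 (55811375 to 55838899, minus strand, ENSMUSG00000035356), encodes IkB zeta, an atypical nuclear IkB protein that can activate some NF-kB targets and restrain others. It read 16.8, 14.9, 16.9 and 10.8 CPM in day 14 off and 19.3 and 17.97 CPM in day 14 on. The off libraries all lay below the on libraries, but the log2 change was small, at -0.32 ± 0.20, and did not pass (edgeR adjusted p = 0.237).

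**Figure D1:**
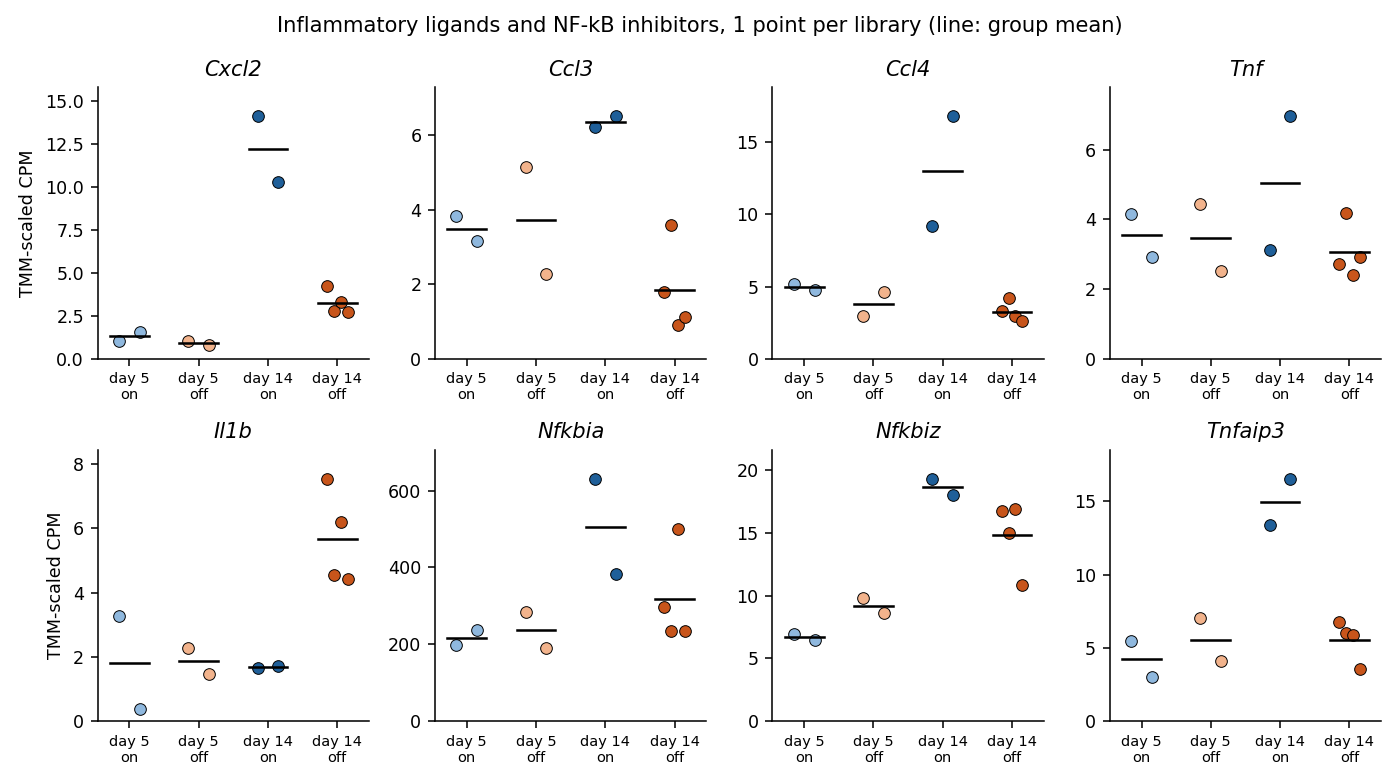
TMM-scaled CPM (vertical axes, each starting at 0) of the 8 genes in the 4 groups, with 1 point per library and a line at each group mean. Cxcl2 reached 10.3 to 14.1 CPM in day 14 on and was at most 4.23 CPM in all other libraries, while Il1b was highest in the 4 day 14 off libraries (4.42 to 7.54 CPM).

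At day 5 no gene of the 8 was called between off and on, against 0.484% of all tested genes. None had an unadjusted p under 0.05 in edgeR, and DESeq2 and limma voom called none either. Cxcl2 read 1.03 and 0.812 CPM in day 5 off and 1.01 and 1.58 CPM in day 5 on, from 9 to 21 reads per library. At this depth a log2 change of -0.53 ± 0.43 could not be told from the spread (edgeR adjusted p = 0.613). The inhibitor Tnfaip3 read 7.01 and 4.14 CPM against 5.51 and 3.00 CPM, and the groups overlapped.

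Nfkbiz read 9.80 and 8.60 CPM in day 5 off and 6.97 and 6.46 CPM in day 5 on, with both off libraries above both on libraries (log2 change 0.45 ± 0.24, edgeR adjusted p = 0.421). Ccl4 was separated the other way, at 2.99 and 4.63 CPM against 5.17 and 4.73 CPM (log2 change -0.36 ± 0.36, edgeR adjusted p = 0.692). The share of all tested genes separated at day 5 was not counted. Ccl3, Tnf, Il1b and Nfkbia overlapped between the day 5 groups, with log2 changes of 0.08, -0.03, 0.12 and 0.13. Il1b read 3.26 CPM in one day 5 on library and 0.375 CPM in the other, the widest relative spread within a group among these 4 genes.

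Over time with the mutant on, 3 of the 8 genes were called higher at day 14 than at day 5 and none lower, against 0.968% of all tested genes called higher. Cxcl2 rose 9.15 times, from 1.01 and 1.58 CPM to 14.1 and 10.3 CPM (log2 change 3.19 ± 0.37, edgeR adjusted p = 0.0134). Nfkbiz rose 2.78 times, from 6.97 and 6.46 CPM to 19.3 and 17.97 CPM (1.47 ± 0.24, edgeR adjusted p = 0.0233). Tnfaip3 rose 3.57 times, from 5.51 and 3.00 CPM to 13.4 and 16.5 CPM (1.83 ± 0.39, edgeR adjusted p = 0.0412). Without day 14 on replicate 1, none of the 3 calls was kept, and edgeR called 0 genes of the whole table. The Nfkbiz call was lost in 4 of 18 alternatives, also without day 14 on replicate 2 or day 14 off replicate 1, and the Tnfaip3 call in 8, also without day 14 on replicate 2, day 5 on replicate 2 or any day 14 off library. Over the alternatives, adjusted p reached 0.408 for each of the 3.

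Ccl4, Nfkbia and Ccl3 were also higher in both day 14 on libraries than in both day 5 on libraries but did not pass. How many of all tested genes were separated in this way was not counted. The log2 changes were 1.40 ± 0.35 for Ccl4 (edgeR adjusted p = 0.0599), 1.22 ± 0.39 for Nfkbia (0.115) and 0.87 ± 0.57 for Ccl3 (0.423). DESeq2 called Ccl4 and Nfkbia (adjusted p = 0.0104 and 0.0194, within ranges of 0.00364 to 0.408 and 2.78e-07 to 0.427 over 18 alternatives). Tnf and Il1b overlapped between the days, with log2 changes of 0.52 ± 0.45 and -0.01 ± 0.75.

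With the mutant off, 2 of the 8 genes were called higher at day 14 than at day 5 and none lower, against 10.1% of all tested genes called higher. Cxcl2 rose 3.54 times, from 1.03 and 0.812 CPM to 2.73 to 4.23 CPM (log2 change 1.82 ± 0.36, edgeR adjusted p = 0.00777). Its call was lost without either day 5 off library (edgeR adjusted p = 0.058 without replicate 1 and 0.07 without replicate 2, within a range of 4.23e-04 to 0.07 over 18 alternatives). Nfkbiz rose 1.62 times (0.69 ± 0.21, edgeR adjusted p = 0.0443), a call that was lost in 9 of 18 alternatives, 7 of them without 1 library (day 14 off replicate 1, 2 or 3, either day 14 on library or either day 5 off library; adjusted p from 0.0221 to 0.22).

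Il1b was higher in all 4 day 14 off libraries than in both day 5 off libraries, which read 2.27 and 1.46 CPM, with a log2 change of 1.61 ± 0.60 that did not pass (edgeR adjusted p = 0.0895). It passed in 5 of 18 alternatives, among them without either day 5 on library (edgeR adjusted p = 0.00958 without replicate 1 and 0.00918 without replicate 2, within a range of 9.49e-04 to 0.335). Ccl3 stood at 5.16 and 2.27 CPM in day 5 off and had a log2 change of -0.98 ± 0.51 (edgeR adjusted p = 0.211), which was -1.55 and passed without day 14 off replicate 2 (0.0448, the lowest of 18 alternatives, the highest being 0.86). Tnfaip3 was at 7.01 and 4.14 CPM at day 5 and 3.58 to 6.77 CPM at day 14, with a log2 change of 0.01 ± 0.33. Ccl4, Tnf and Nfkbia overlapped, with log2 changes of -0.23, -0.17 and 0.41.

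**Figure D2:**
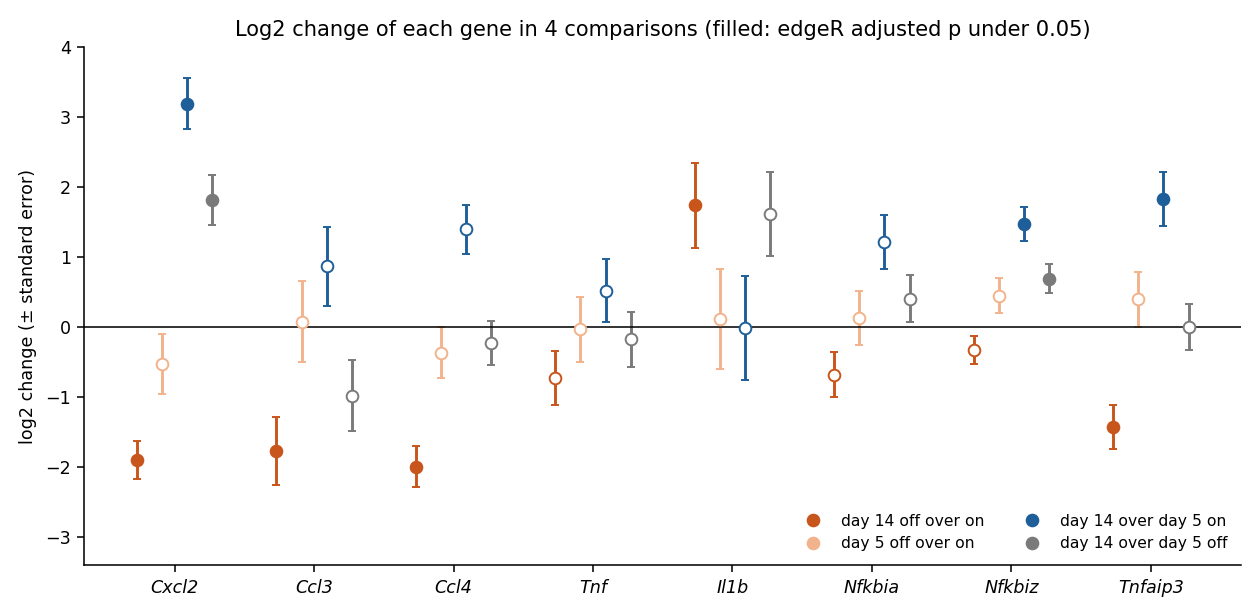
Log2 change (vertical axis, bars are standard errors) of the 8 genes in 4 comparisons, with filled points for an edgeR adjusted p under 0.05. At day 14 (off over on), 7 of the 8 points lie below 0 and Il1b above it, and the comparisons that use day 14 on share those 2 libraries.

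Both the day 14 comparison and the comparison of days with the mutant on use the same 2 day 14 on libraries, so their values are not independent. Side by side, the log2 changes were -1.90 and 3.19 for Cxcl2, -1.99 and 1.40 for Ccl4, and -1.42 and 1.83 for Tnfaip3. Whether off over on differed between the days was tested as an interaction, and no gene of the 8 was called, against 3.06% of all tested genes. In edgeR 5 of the 8 had an unadjusted p under 0.05, DESeq2 called 2 (Ccl4 and Tnfaip3) and limma voom 0. The differences, day 14 minus day 5, were -1.83 ± 0.50 for Tnfaip3 (edgeR adjusted p = 0.0728), -1.62 ± 0.47 for Ccl4 (0.0819), -1.37 ± 0.52 for Cxcl2 (0.15), -1.85 ± 0.76 for Ccl3 (0.181) and -0.78 ± 0.31 for Nfkbiz (0.174). For Il1b it was 1.63 ± 0.94 (0.321). Tnfaip3 passed without day 5 on replicate 1 (-2.32, edgeR adjusted p = 0.0354, within a range of 0.0013 to 0.284 over 17 alternatives). The day 14 calls are thus not shown to be particular to day 14.

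The other genes of the pathway were described from 7 lists of 69 genes, of which 61 were tested. At day 14, off over on, 2 were called higher and 19 lower. The share called, 34.4%, was near the 31.8% of all tested genes, with 3.28% called higher against 16.9% and 31.1% lower against 14.9%. The pathway genes had a median log2 change of -0.37 against 0.01 over all tested genes. Among the 5 NF-kB subunits, Rel and Nfkb1 were lower (40%, against 14.9% of all tested genes) and none was higher. Rel, which encodes c-Rel, read 11.9 to 16.9 CPM in day 14 off and 37.2 to 50.3 CPM in day 14 on (log2 change -1.61 ± 0.27, edgeR adjusted p = 0.00136). Nfkb1, which encodes p105 and its product p50, read 43.2 to 48.3 CPM against 77.4 to 126.5 CPM (-1.16 ± 0.25, edgeR adjusted p = 0.00621). Rela, the p65 subunit, read 80.7 to 107.5 CPM against 87.2 to 88.1 CPM, so its groups overlapped, and its log2 change was 0.03 ± 0.16. Relb and Nfkb2 had log2 changes of 0.00 ± 0.20 and -0.43 ± 0.26 and did not pass.

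Among 8 other inhibitors and feedback genes, 3 were lower (37.5%, against 14.9% of all tested genes) and none higher. They were Bcl3, a nuclear IkB protein (log2 change -1.40 ± 0.27, edgeR adjusted p = 0.00279), the A20-binding protein gene Tnip1 (-0.46 ± 0.15, 0.0349) and the deubiquitinase gene Cyld (-0.43 ± 0.13, 0.0322). Among 16 kinases and adaptors, 3 were lower (18.8%, near the 14.9% of all tested genes) and none higher. These were Ikbkb, the IKK beta kinase (-0.98 ± 0.14, edgeR adjusted p = 5.46e-04), Map3k14, the NIK kinase of the non-canonical branch (-0.96 ± 0.29, 0.0251), and Birc2, the ubiquitin ligase cIAP1 (-0.65 ± 0.21, 0.0352). Of 4 genes for mRNA decay, 2 were lower (50%, against 14.9% of all tested genes) and none higher. Zfp36, which encodes the tristetraprolin that destabilises Tnf mRNA, read 44.6 to 67.3 CPM in day 14 off and 100.5 to 138.1 CPM in day 14 on (-1.10 ± 0.23, edgeR adjusted p = 0.00457). The endonuclease gene Zc3h12a (regnase 1) was lower too (-0.80 ± 0.22, edgeR adjusted p = 0.02). Zfp36l1 (0.12 ± 0.15, edgeR adjusted p = 0.582) and Zfp36l2 (-0.88 ± 0.35, 0.0803) did not pass.

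Of 10 receptors tested, 4 were lower (40%, against 14.9% of all tested genes) and none higher. The interleukin 1 receptor Il1r1 read 0.677 to 1.17 CPM in day 14 off and 7.05 to 14.99 CPM in day 14 on (log2 change -3.62 ± 0.53, edgeR adjusted p = 7.15e-04). Its ligand gene Il1b was higher in the same off libraries, at 4.42 to 7.54 CPM. Ccr1, a receptor of the Ccl3 chemokine, was lower (-2.39 ± 0.56, edgeR adjusted p = 0.00807), as was Tlr2, a sensor of bacterial lipoproteins (-2.14 ± 0.66, 0.0301). Both rest on few reads. Ccr1 had 2 to 10 per day 14 off library (0.169 to 0.688 CPM) and 17 to 36 per day 14 on library. Tlr2 had 5 to 13 and 20 to 30. Cxcr2, the receptor of the Cxcl2 chemokine, read 124 to 172 CPM in day 14 off and 113 to 130 CPM in day 14 on, and did not pass (0.32 ± 0.18, edgeR adjusted p = 0.207). Tnfrsf1a (0.05 ± 0.28) and Tnfrsf1b (-0.48 ± 0.32), which encode TNF receptors, did not pass either.

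Of 4 genes for the release of cytokines, 2 were lower (50%, against 14.9% of all tested genes) and none higher. Casp1 (caspase 1) was lower, at 3.86 to 6.44 CPM against 17.9 to 23.0 CPM (log2 change -1.92 ± 0.26, edgeR adjusted p = 3.97e-04). The inflammasome adaptor gene Pycard was lower too (-0.72 ± 0.18, edgeR adjusted p = 0.0121). The other release genes, Nlrp3 (-0.20 ± 0.34, edgeR adjusted p = 0.688) and Adam17 (0.04 ± 0.14, 0.858), did not pass. Between the day 14 groups, Il1r1, Casp1 and Pycard were thus lower in off, while Il1b was higher. The Il1b call only just passed and was lost in 9 of 18 alternatives. The interleukin 1 receptor genes Il1r2 (-0.45 ± 0.51, edgeR adjusted p = 0.538) and Il1rap (-0.65 ± 0.64, 0.477) did not pass. Of 14 other NF-kB target genes tested among 21 listed, 2 were higher (14.3%) and 3 lower (21.4%), shares near the 16.9% and 14.9% of all tested genes. Those lower were the interferon-induced chemokine Cxcl10 (-2.12 ± 0.41, edgeR adjusted p = 0.00321), the transcription factor Irf1 (-0.82 ± 0.20, 0.0113) and the interleukin 1 receptor antagonist Il1rn (-1.90 ± 0.63, 0.0394). Il1rn had only 4 to 10 reads per day 14 off library and 10 to 29 per day 14 on library. Those higher were the T cell chemokine Ccl5 (1.58 ± 0.47, edgeR adjusted p = 0.0292) and the mitochondrial superoxide dismutase Sod2 (0.46 ± 0.14, 0.0254).

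**Figure D3:**
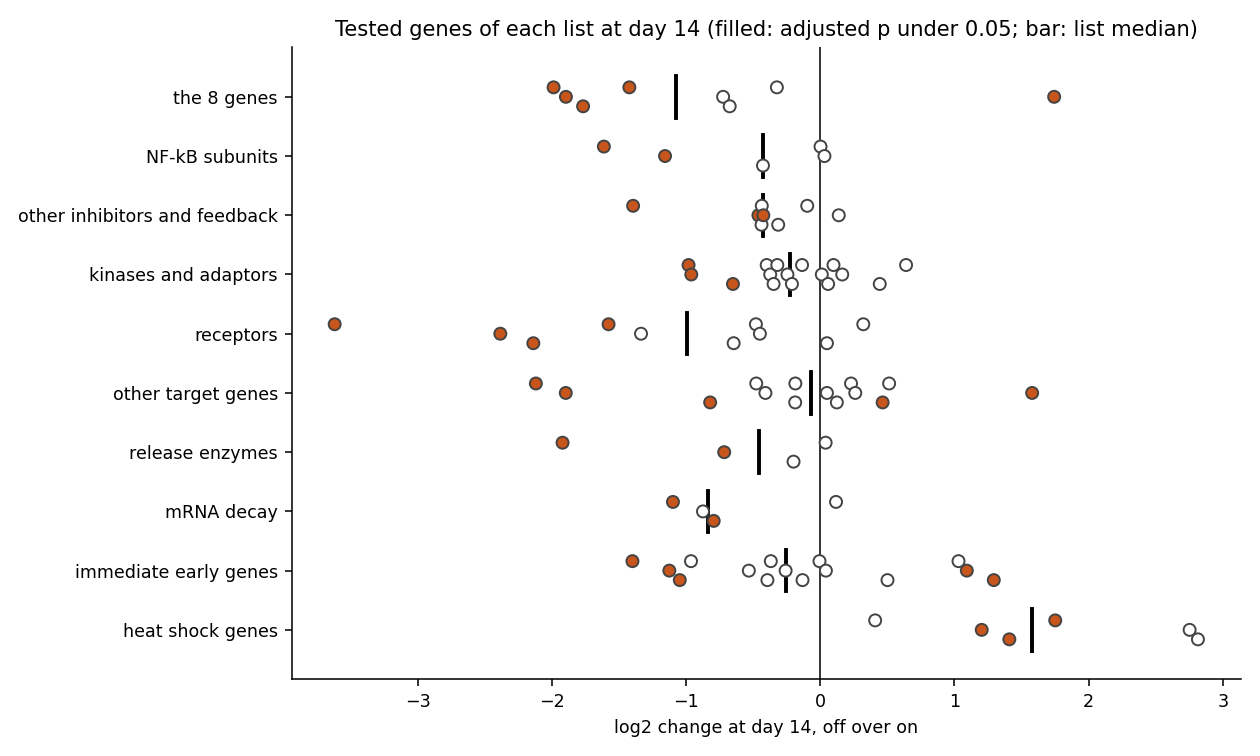
Log2 change at day 14, off over on (horizontal axis), of each tested gene in the lists around the 8 genes, with 1 row per list, filled points for an edgeR adjusted p under 0.05 and a bar at the list median. The receptors reach farthest to the left, with Il1r1 at -3.62, and the heat shock genes lie to the right, with 3 of 6 called.

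Over time with the mutant on, 3 of the 61 pathway genes (4.92%) were called higher at day 14 than at day 5 and none lower, against 0.968% of all tested genes called higher. These were Nfkb2, which encodes p100 (log2 change 1.47 ± 0.33, edgeR adjusted p = 0.0478), Zfp36 (1.64 ± 0.28, 0.0283) and its relative Zfp36l1 (0.86 ± 0.17, 0.0391). None of these calls was kept in a fit of only the groups compared, which called no gene of the whole table. With the mutant off, 5 (8.2%) were called higher and 8 (13.1%) lower, against 10.1% and 6.94% of all tested genes. Rela was higher at day 14 (0.85 ± 0.17, edgeR adjusted p = 0.00834) while Rel was lower (-1.22 ± 0.27, 0.0135). Il1r1 (-2.30 ± 0.56, edgeR adjusted p = 0.021), Ccr1 (-2.17 ± 0.56, 0.0247) and Casp1 (-1.58 ± 0.26, 0.00368) were lower as well. The Ccr1 change rests on 2 to 10 reads per day 14 off library and 24 to 25 per day 5 off library.

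Immediate early and heat shock genes, which also respond to how cells are handled during a sort, were set beside these values. At day 14, off over on, 2 of 15 immediate early genes were higher (Fosb, log2 change 1.29, and Egr3, 1.09) and 3 were lower (Fosl2, -1.13, Klf6, -1.05, and Dusp2, -1.40), or 13.3% and 20.0% against 16.9% and 14.9% of all tested genes. Of 6 heat shock genes, 3 were higher (Hsp90aa1, 1.41, Dnajb1, 1.20, and Hsph1, 1.75) and none lower, or 50% higher against 16.9% of all tested genes. Between day 5 and day 14 with the mutant on, where Cxcl2, Nfkbiz and Tnfaip3 rose, 3 immediate early genes rose, 2 of them Egr1 (2.55 ± 0.45, edgeR adjusted p = 0.0327) and Jund (1.43 ± 0.28, 0.0385), a share of 20.0% against 0.968% of all tested genes. These calls too were absent in the fit of only the groups compared. Between the days with the mutant off, 4 immediate early genes rose, Egr1 by 2.79 ± 0.43 on the log2 scale (edgeR adjusted p = 0.0034), and 1 was lower, or 26.7% and 6.67% against 10.1% and 6.94% of all tested genes. Their part in the changes of the 8 genes was not tested.

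Markers of mature cells were also read in these sorted libraries, because monocytes and neutrophils are strong sources of the 5 ligands. In bulk RNA, fewer cells of a type and less RNA per cell cannot be told apart. The 13 monocyte and macrophage markers summed to 179 to 233 CPM in day 14 off, 296 to 621 in day 14 on, 213 to 431 in day 5 off and 235 to 488 in day 5 on. Of the 11 tested, 5 were lower in day 14 off than in day 14 on (Adgre1, Cd14, Ly6c2, Lyz2 and Ms4a6c) and none higher, or 45.5% lower against 14.9% of all tested genes, and only C1qb, in day 5 off, was at 0 in a whole group. The 10 neutrophil markers summed to 615 to 1021 CPM in day 14 off and 1024 to 1716 CPM in day 14 on, with 2 of 10 lower (Ngp and S100a9), a share of 20.0% that is near that of all genes. At day 5 they summed to 460 to 499 CPM in off and 753 to 1564 CPM in on, lower in off. By the test, none of the 10 neutrophil markers was called at day 5, nor was any of the 8 genes. The 7 mast cell and basophil markers summed to 0.593 to 2.35 CPM in day 14 off and 4.70 to 9.02 CPM in day 14 on. Of 3 tested, 1 was lower (33.3%, against 14.9% of all tested genes), and Fcer1a and Tpsab1 were at 0 in both groups. At day 5 the mast cell and basophil sum was the other way, at 22.2 to 22.7 CPM in off and 3.91 to 13.9 CPM in on.

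The 8 dendritic cell markers summed to 1758 to 4208 CPM in day 14 off and 1916 to 4500 CPM in day 14 on, and the groups overlapped. The 9 T and NK cell markers summed to 41.5 to 84.1 CPM and 55.5 to 78.0 CPM (2 of 8 tested lower, or 25.0% against 14.9% of all tested genes), and the 5 B cell markers to 6.27 to 7.76 CPM and 5.87 to 8.91 CPM, which overlapped. The 8 erythroid markers went the other way, at 2492 to 3019 CPM in day 14 off and 624 to 625 CPM in day 14 on, with 6 of 8 higher (75.0%, against 16.9% of all tested genes). The monocyte, neutrophil and mast cell sums thus moved at day 14 in the direction of the 4 genes that were lower, and the erythroid sum in that of Il1b. Their part in these results was not tested.

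The 8 genes did not follow 1 pattern across the 10 libraries. For each gene, log2 CPM was put on a z scale over the libraries, and the mean over the 8 was 0.96 and 1.24 in the day 14 on libraries, between -0.51 and 0.15 in day 14 off, -0.09 and -0.74 in day 5 off, and -0.27 and -0.80 in day 5 on. As a description over these 10 libraries, which share 4 group means, Pearson's r was highest between Cxcl2 and Nfkbiz (0.85) and between Cxcl2 and Nfkbia (0.80). It was 0.72 between the neighbours Ccl3 and Ccl4 and 0.73 between Ccl3 and Tnf. Il1b ran against Ccl3 (-0.51) and Ccl4 (-0.44), while its r with Nfkbiz was 0.49.

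Of 9301 other genes whose mean log2 CPM was 3 or more, those most like the mean z profile were Dcaf5 (r = 0.95), Dennd4a (0.94), Map7d1 (0.93), Shkbp1 (0.92) and Ubqln2 (0.92). Dcaf5 read 21.8 to 25.7 CPM in day 14 off, 33.7 to 34.2 in day 14 on, 19.9 to 20.7 in day 5 off and 19.8 to 24.6 in day 5 on. Most like Cxcl2 alone were Prrc2b (r = 0.99), Lrrc8d (0.99) and Wee1 (0.97), with Prrc2b at 41.3 to 50.2, 64.3 to 73.7, 28.5 to 32.7 and 29.5 to 35.7 CPM in the same order of groups. Most like Nfkbia were Mapkapk2 (0.98), Inpp5d (0.97) and Sh2b3 (0.96). Mapkapk2 read 95.6 to 166.6, 140.9 to 226.6, 86.5 to 114.5 and 84.8 to 103.9 CPM in that order.

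**Figure D4:**
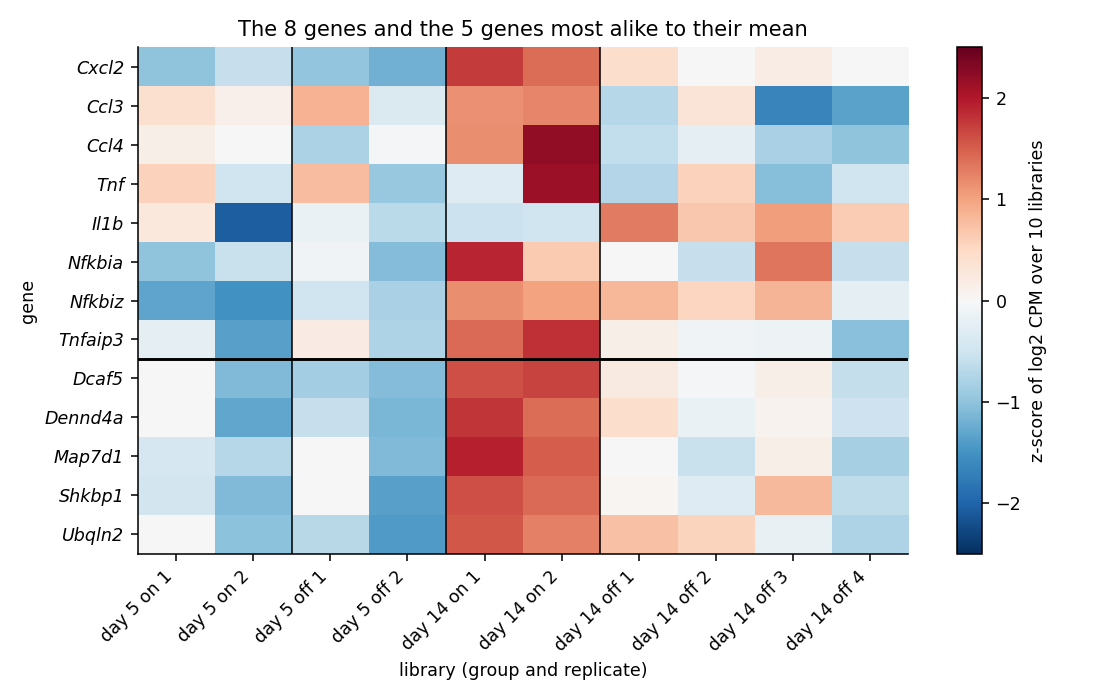
Heat map of z-scores of log2 CPM (colour, over 10 libraries) for the 8 genes and, under the line, the 5 genes most like their mean, with libraries as columns. Of the 8 genes, 7 have their highest value in a day 14 on column, where the mean z-scores are 0.96 and 1.24, and Il1b is highest in day 14 off.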

How the data were processed

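RNA of 10 libraries was made with a QuantSeq 3′ kit and sequenced as single-end reads, per the labels' protocols. The table the authors deposited holds raw counts, not normalised, for Ensembl gene IDs. HISAT2 2.0.4 and the build mm10 are listed in the submitters' processing notes, with cutadapt 1.14 and bcl2fastq 2.17.1.14, and so are limma 3.48.3, edgeR 3.34.0, Subread 2.0.0 and featureCounts. No strand setting, other option or annotation release is given in the sources used here. Of 52636 gene IDs, 52403 were given a symbol from GENCODE M21, which also gave the mm10 positions.

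The counts were fitted here with edgeR 4.0.16 (R 4.3.3): TMM scaling, the filterByExpr low-count filter, 1 mean per group over all 10 libraries, and the robust quasi-likelihood test. Adjusted p is Benjamini-Hochberg over 15916 genes, with calls under 0.05. Each standard error was taken as the log2 change divided by the square root of the test statistic. Scaling sets composition, so a few abundant transcripts can shift all CPM, and 3 genes at ribosomal RNA loci took 7.78% to 16.5% of counts per library.

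There were 18 alternatives: RLE scaling, no filter, a filter of 5 CPM in at least 2 libraries, DESeq2 1.42.0, limma voom 3.58.1, the replicate number as a block, only the groups compared, no ribosomal RNA genes, and each of 10 libraries left out. The 8 genes, the lists and the tests were chosen with earlier results of these data known. From each list, up to 3 called genes of smallest p per direction were named at day 14 off over on and up to 2 in other comparisons, and the subunits and 6 receptors always, of which 1 receptor is not reported here. Likeness used log2 CPM with a prior count of 2.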

Additional observations from a re-analysis of the deposited data

Results flagged for a closer look

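Nfkbiz was flagged because its off and on libraries did not overlap at either day, in opposite directions. Neither change was called (edgeR adjusted p = 0.421 at day 5 and 0.237 at day 14). How many of all genes separate in opposite directions was not counted. At day 5 both off libraries (9.80 and 8.60 CPM) lay above both on libraries (6.97 and 6.46 CPM), and at day 14 all 4 off libraries (10.8 to 16.9 CPM) lay below both on libraries (17.97 and 19.3 CPM). The change of off over on, day 14 minus day 5, was -0.78 ± 0.31 on the log2 scale and did not pass the interaction test (edgeR adjusted p = 0.174, and 0.133 to 0.439 over 17 alternatives). Among the 4 day 14 off libraries, no gene of the 8 had a library far enough from the others to pass Dixon's criterion, the highest ratio being 0.764 for Nfkbia against a critical value of 0.829.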

How the results depend on the processing

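Of 707 values of the 8 genes under the alternatives, 612 kept their direction and their side of the threshold, 37 lost a call, 22 gained one and 36 changed sign. At day 14, off over on, no value changed sign. RLE scaling moved the median of all genes by -0.0275 to 0.0224 (log2) across the comparisons. The interaction needs all 4 groups, so a fit of only the groups compared was not run for it, and Tnf did not pass the 5 CPM filter. Reads per library limit Il1b and Cxcl2 at day 5 most, where counts went down to 5 and 9.

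The main counts of called genes were 5063 of all genes and 5 of the 8 at day 14, 77 and 0 at day 5, 370 and 3 over time with the mutant on, 2706 and 2 over time with it off, and 487 and 0 for the difference between days. The filter, the test and the block moved several of these. Over all genes, day 5 gave 992 calls with no low-count filter, 472 with DESeq2, 225 with the replicate block, 0 with limma voom and 0 with only the groups compared. Time with the mutant on gave 1275 with no filter, 1136 with DESeq2, 1014 with the block and 0 with only the groups compared. The difference between days gave 1957, 1327 and 1521 with no filter, DESeq2 and the block. Of the 8 genes, time with the mutant on gave 5 with no filter, 5 with DESeq2, 5 with the block and 0 with only the groups compared, time with it off gave 1 with limma voom, and the difference between days gave 4 with no filter and 2 with DESeq2. The cause was not tested, beyond the fewer libraries of the fit to only the groups compared.

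Libraries with the same replicate number share only a number in the labels. Their deviations from the group means correlated at 0.287 to 0.535 over the 6 pairs of groups. With the replicate block, 5 of the 8 genes were still called at day 14: Ccl3 was lost (log2 change -1.22, edgeR adjusted p = 0.0732) and Nfkbia gained (-0.91, 0.0121).

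Leaving out 1 library gave 3 to 5 of the 8 genes and 2985 to 5738 of all genes at day 14, 0 to 304 of all genes at day 5, 0 to 3 and 0 to 680 over time with the mutant on, 0 to 3 and 601 to 3409 with it off, and 0 to 1 and 106 to 965 for the difference between days. For the 8 genes, the lowest came without either day 14 on library at day 14, without day 14 on replicate 1 over time with the mutant on, and without either day 5 off library over time with it off. For all genes, the highest at day 5 came without day 5 on replicate 1, and the lowest over time with the mutant on came without day 14 on replicate 1.

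Several log2 changes that were not called changed sign. Il1b over time with the mutant on was 0.0243 with RLE scaling, 0.039 with no filter, 0.0126 at 5 CPM, 0.81 with limma voom, 0.20 with the block and 0.0108 without ribosomal RNA genes, and -0.91 to 2.14 with 1 library left out. Tnfaip3 over time with the mutant off was -0.0107 at 5 CPM and -0.33 to 0.41 with 1 library left out. Ccl3 at day 5 was -0.0506 with limma voom and -0.60 to 0.57 with 1 left out. With 1 library left out, day 5 values ran from -0.47 to 0.33 for Tnf, -0.79 to 2.24 for Il1b, -0.17 to 0.39 for Nfkbia and -0.00307 to 0.85 for Tnfaip3. Over time they ran from -0.17 to 1.01 for Tnf with the mutant on, and with it off from -0.53 to 0.27 for Tnf and -0.51 to 0.14 for Ccl4. The difference between days ran from -1.20 to 0.00277 for Tnf and -0.54 to 2.51 for Il1b.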
